A study of Mus musculus with 2 samples.

Results

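The replication-dependent histone genes lie in a few clusters of the mouse genome and encode the core histones H2A, H2B, H3 and H4 and the linker histone H1. The genes described here are all rows of the deposited gene table whose symbol begins with Hist1h, Hist2h, Hist3h or Hist4h. They number 62 of 18888 genes, with 6 genes of class H1, 17 of H2A, 17 of H2B, 10 of H3 and 12 of H4. By the symbols, 52 belong to the Hist1 cluster on chromosome 13, 7 to Hist2 on chromosome 3, 2 to Hist3 on chromosome 11 and 1 to Hist4 on chromosome 6.

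RNA was sequenced from 46C mouse embryonic stem cells (mESCs), an established line, that carried either the empty PiggyBac vector (PB) or a PiggyBac vector expressing telomeric repeat-containing RNA, the noncoding transcript of telomeres, with a poly(A) tail (PB-TERRA). Both groups were cultured on gelatin in conventional mESC medium at passages 21 to 24 and differed, by the labels, only in the insert of the vector. Each group is 1 library, so no spread between replicates can be estimated, no test was run, and every difference is between 2 libraries. The sources used here do not say whether the transfected cells were 1 clone or a pool, and in bulk RNA fewer cells that use a gene and less RNA per cell cannot be told apart.

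Histone proteins package DNA into nucleosomes, with H1 binding the DNA that links them, and the cluster genes supply them while DNA is copied. Unlike other mRNAs, most of their transcripts carry no poly(A) tail. They end just after a short conserved stem-loop, which is held by the stem-loop binding protein Slbp, while the U7 small nuclear ribonucleoprotein directs the cut behind it. Embryonic stem cells divide fast and spend much of their cycle copying DNA. The libraries were made with a TruSeq RNA kit, a kind of kit that takes up RNA by its poly(A) tail, so the values here count the histone RNA that such a library holds and not all histone RNA of the cells.

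The stem-loop was found in the annotated transcripts of 39 of the 62 members (62.9%) and of 13 of 21810 other protein-coding genes (0.0596%). It was searched as a perfect stem of 6 bases that starts with GG, around a loop of TTTC or TTTA, in GENCODE transcripts of the genome GRCm38. The 4 forms that occurred are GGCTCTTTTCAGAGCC in 25 members of classes H1, H2A, H2B and H3, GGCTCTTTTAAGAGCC in 6 members of H1, H2B and H3, and, in H4 members only, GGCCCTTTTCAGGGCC in 6 and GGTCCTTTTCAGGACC in 2. The stem-loop began 24 to 58 bases after the end of the coding sequence, with a median of 31. Of the 23 members without it, 10 are annotated only up to the stop codon. Others, such as Hist1h2af and Hist1h2ah, have annotated transcripts hardly longer than their coding sequence, too short to hold it at these distances. Its absence from such transcripts says nothing about the gene.

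The 28 bases that end with the stem-loop are shown for the 3 most abundant members that have it and for 5 others, which differ from them in class, in the form of the stem-loop or in the run of A before it. Of the 4 forms, 3 are shown. All lie in exon 1, within the 3′ untranslated part, and capitals mark the stem-loop.
Hist1h2ao: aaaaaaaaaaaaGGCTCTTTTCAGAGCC
Hist1h2ap: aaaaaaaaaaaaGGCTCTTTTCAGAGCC
Hist1h2ad: tataaaaacaaaGGCTCTTTTCAGAGCC
Hist1h2ae: aaaaaaaacaaaGGCTCTTTTCAGAGCC
Hist1h1c: aacaatccaaaaGGCTCTTTTCAGAGCC
Hist1h2bk: tctagcaccaaaGGCTCTTTTAAGAGCC
Hist1h3c: tatttaaaaaaaGGCTCTTTTAAGAGCC
Hist1h4d: ccaaaaaccaaaGGCCCTTTTCAGGGCC
In GRCm38 they are chr13:21810886-21810913 on the + strand for Hist1h2ao, chr13:21833029-21833056 on the - strand for Hist1h2ap, chr13:23574883-23574910 (+) for Hist1h2ad, chr13:23570668-23570695 (-) for Hist1h2ae, chr13:23739500-23739527 (+) for Hist1h1c, chr13:22036288-22036315 (+) for Hist1h2bk, chr13:23745047-23745074 (-) for Hist1h3c and chr13:23581938-23581965 (+) for Hist1h4d.

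Between the coding end and the stem-loop, Hist1h2ao and Hist1h2ap hold a run of 12 A, directly before the stem-loop. None of the other members with a stem-loop has a run that long between these points. Hist1h2ae has a run of 8 and Hist1h3c a run of 7. The longest run of the other 35 members with a stem-loop is 3 to 5 bases. For the 23 members without a found stem-loop, this part could not be measured. Anywhere in an annotated transcript, a run of at least 12 A is found in 3 of the 62 members (4.84%) and in 9.30% of other protein-coding genes. The third member is Hist1h2ac, with a run of 15 A behind the stem-loop and a mean of only 0.17 FPKM.

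**Figure D1:**
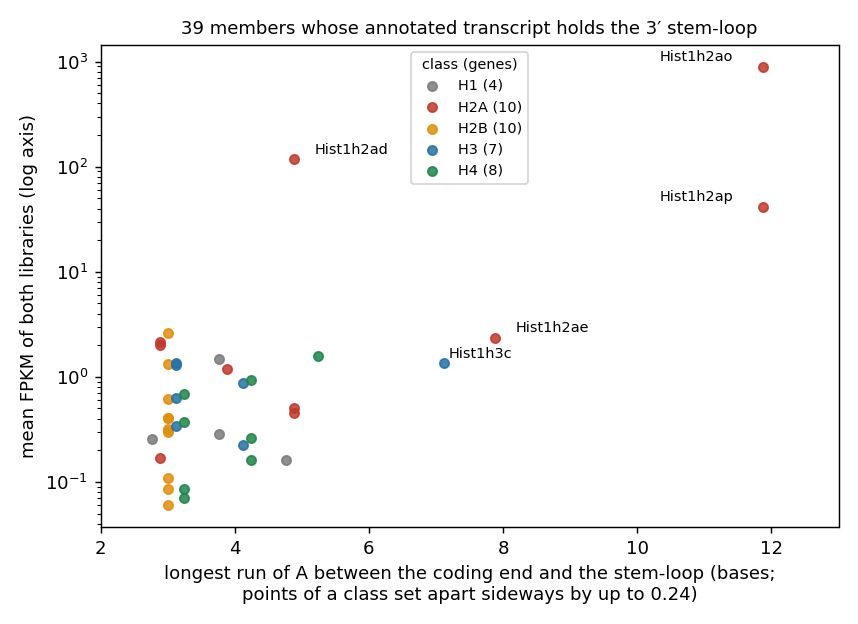
Longest run of A between the coding end and the stem-loop, in bases (x axis), against the mean FPKM of both libraries on a log axis (y axis), for the 39 members with an annotated stem-loop, coloured by class and set apart slightly sideways. Hist1h2ao and Hist1h2ap, at 12 bases, and Hist1h2ad, at 5, lie above 40 FPKM, and the other 36 members lie below 3 FPKM.

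As the plot of A runs against level shows, Hist1h2ao, at a mean of 897 FPKM, and Hist1h2ap, at 41.6 FPKM, were the most and the third most abundant of all members by this mean. Hist1h2ap ranked 3 in PB-TERRA but 5 in PB, where it had 5.06 FPKM. Hist1h2ad, at a mean of 118 FPKM, had a run of only 5. FPKM, the unit inferred for the deposited values, scales fragments to the length of the gene and to all mapped fragments, so levels of different genes can be set side by side. The runs of Hist1h2ae and Hist1h3c, the next longest, went with mean levels of 2.37 and 1.36 FPKM. Whether the run of A takes part in how these transcripts enter a poly(A) library was not tested.

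Hist1h2ao and Hist1h2ap also share most of their sequence, which bears on how their values can be read. Their coding sequences of 393 bases are identical. Of the 50-base stretches in the annotated transcript of Hist1h2ao, 93.5% occur in Hist1h2ap, and 93.1% of those of Hist1h2ap occur in Hist1h2ao. In RefSeq order they are close neighbours on chromosome 13, on opposite strands, with Hist1h4m as the only member between them. The coding sequences of Hist1h2ad and Hist1h2ag differ from that of Hist1h2ao at 3 bases each, those of Hist1h2ac and Hist1h2an at 5 and that of Hist1h2ai at 6.

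Their promoters share a stretch too, shown because it is the longest that both windows hold. RefSeq promoter windows of GRCm38.p6, from 250 bases before to 50 after the annotated start, were matched by gene number for 56 of the 62 members. The windows of Hist1h2ao and Hist1h2ap have a run of 200 identical bases, which reaches the end of the Hist1h2ao window and the beginning of the Hist1h2ap window. It is chr13:21810217-21810416 on the + strand for Hist1h2ao and chr13:21833526-21833725 on the - strand for Hist1h2ap, and begins 150 bases before the start of the former and 250 before that of the latter. Capitals mark CCAAT on either strand (3 times) and TATAA (1 time). TATAA lies behind the annotated start of Hist1h2ao but before that of Hist1h2ap, so it is marked as letters only.
Hist1h2ao and Hist1h2ap: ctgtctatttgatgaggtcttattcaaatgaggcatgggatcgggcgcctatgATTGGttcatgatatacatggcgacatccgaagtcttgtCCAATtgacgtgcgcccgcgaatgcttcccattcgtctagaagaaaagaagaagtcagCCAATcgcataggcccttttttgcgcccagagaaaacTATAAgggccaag
The longest run shared with the window of Hist1h2ao is 40 bases for Hist1h2ad, 15 for Hist1h2an and 7 for Hist1h2ai.

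Short motifs were frequent in the promoter windows of the members. TATAA, the core of the TATA box, was found for 80.4% of the 56 members and for 28.0% of all 27025 genes with a window. CCAAT, the box bound by the factor NF-Y, was found for 85.7% against 41.1%, and 2 or more copies of it for 71.4% against 13.3%. The octamer ATTTGCAT, bound by Pou2f1, was found for 21.4% against 1.97%. All were searched on both strands, none contains another, and a match describes the letters only.

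Sharing differed between the classes. The median share of a member's 50-base stretches that occur in another member was 78.9% in H2A, 51.8% in H3, 44.1% in H2B, 33.5% in H4 and 1.10% in H1. Shares are of annotated transcripts, some much longer than the deposited gene. Hist1h1d has 7376 stretches for a deposited length of 776 bases, and Hist1h2ac 2433 for 487. The shares and the order of the classes need not hold over the deposited lengths. Genes outside the members were searched on both strands. How the authors assigned a read that fits several copies is not given in the sources used here, so single-gene values of H2A, H2B, H3 and H4 members are uncertain, and sums by class are given with them. Hist1h2bq and Hist1h2br, which share 97.3% and 88.7% of their stretches, have the same value in each library, 0.98 FPKM in PB and 0.57 in PB-TERRA.

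**Figure D2:**
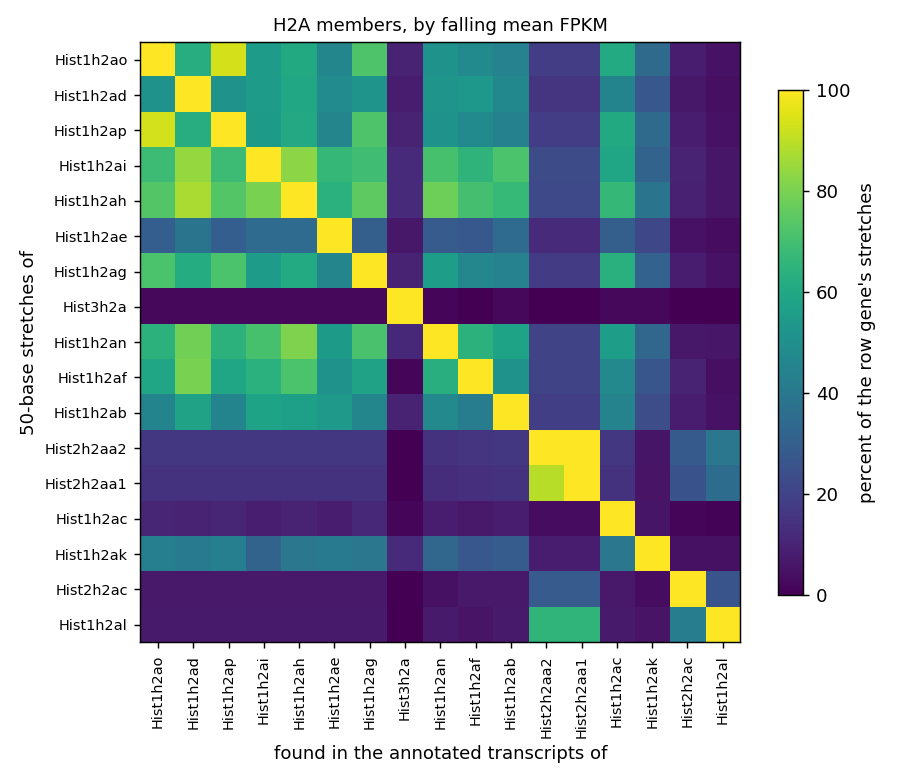
Share of the 50-base stretches of each H2A member (rows) that occurs in the annotated transcripts of each other H2A member (columns), in percent by colour, with the 17 genes in order of falling mean FPKM. The pair Hist1h2ao and Hist1h2ap stands out at 93.5% and 93.1%, and the pair Hist2h2aa1 and Hist2h2aa2 at 89.2% and 100%. Hist3h2a, with an annotated transcript much longer than its deposited gene, lies at no more than 2% of its own stretches.

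Read numbers are not in the table and were estimated from FPKM and gene length, as fitted on genes outside the members. The fit gave a total of 24766000 reads in PB and 24904000 in PB-TERRA, so the depth of the libraries was close. A gene was kept for ratios where it reached 1 FPKM in either library, and the 12263 such genes had a median log2 ratio of -0.0044, as log2 of FPKM + 0.1 in PB-TERRA over PB, a scale that understates the change of genes with low values. Short genes were a little lower in PB-TERRA, with a median of -0.05 over 591 other genes of 350 to 800 bases. All 10 embryonic stem cell markers listed passed the filter, among them Pou5f1, the stem cell factor Oct4, with 745 FPKM in PB and 773 in PB-TERRA. Dppa5a stood at 1163 and 1040 FPKM and Utf1 at 387 and 359. Of 7 primitive endoderm markers, 5 passed the filter and all 5 were higher in PB-TERRA, with a summed level over the 7 of 10.5 and 14.7 FPKM. Dab2 had 5.04 and 6.35 FPKM, Gata4 1.86 and 2.31, and Gata6 1.22 and 2.26. The fibroblast list summed to 19.3 and 23.2 FPKM, with 3 of 8 genes past the filter, Thy1 at 9.16 and 8.39 FPKM, Col1a1 at 7.99 and 12.14 and Col1a2 at 0.92 and 1.37. The early neural list summed to 29.1 and 23.2 FPKM, with 2 of 6 past the filter, Nes at 27.3 and 20.9 FPKM and Sox1 at 1.06 and 1.56, followed by Pax6 at 0.63 and 0.51. The part of other cell types in the histone values was not tested.

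Histone cluster genes were mostly near the lower limit of the table, apart from a few of class H2A and 1 of H2B. Their median level, as the mean of both libraries, was 0.568 FPKM, against 3.69 FPKM over all genes. In both libraries 56 of the 62 lay under 5 FPKM and had fewer than 50 reads. Of the 62, 27 passed the filter of 1 FPKM, 5 had 0 reads in PB only and 3 had 0 reads in PB-TERRA only, which allows up to 3 reads there.

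**Figure D3:**
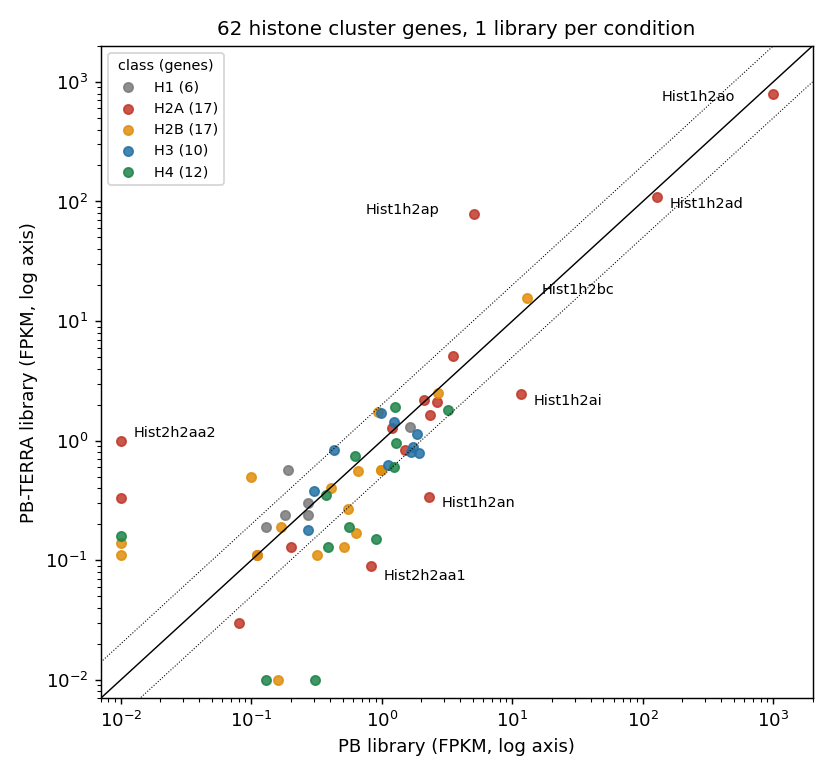
FPKM of the 62 histone cluster genes in the PB library (x axis) and in the PB-TERRA library (y axis), both log axes, 1 point per gene, coloured by class. The solid line marks equal values and the dotted lines a log2 ratio of 1 in either direction. Hist1h2ao is the highest in both libraries, Hist1h2ap lies far above the lines at 5.06 and 78.07 FPKM, and Hist1h2ai lies below them at 11.68 and 2.46 FPKM.

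Class H2A held nearly all of the histone RNA that was counted, 96.1% of the members' summed FPKM in PB and 95.9% in PB-TERRA. Hist1h2ao alone made up 82.8% and 76.2%. It had 1003.93 FPKM in PB, against 790.16 in PB-TERRA (10890 and 8619 reads) and ranked 89th among all genes. The log2 ratio of -0.35 had a 95% interval of -0.39 to -0.30. This interval and those that follow are exact Clopper-Pearson intervals of the ratio of reads and cover counting error only. Of 62 other genes of 350 to 800 bases with a mean of at least 500 FPKM, 52 were lower in PB-TERRA, with a median of -0.11, and 3 of them were as low as Hist1h2ao or lower, namely Rpl34-ps1, Rps21 and Rps10, named after their values were seen.

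Hist1h2ad, the next in level, stood at 127.62 FPKM in PB and at 108.91 in PB-TERRA (1331 and 1142 reads). Its log2 ratio was -0.23, with an interval of -0.34 to -0.11. Among 173 other short genes with a mean of 50 to 500 FPKM, 26 were at or below this ratio.

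Hist1h2ap was far higher in PB-TERRA. It had 5.06 FPKM in PB, against 78.07 in PB-TERRA, from 42 and 657 reads, which is 15.4 times the FPKM and a log2 ratio of 3.92. The interval of 3.51 to 4.45 lay far from 0. The gain of 73.01 FPKM in Hist1h2ap was smaller than the loss of 213.77 FPKM in Hist1h2ao, the copy with the identical coding sequence. Their deposited lengths differ, 452 bases for Hist1h2ap and 552 for Hist1h2ao, and in reads the gain was 615 and the loss 2271. Summed, the 2 genes had 1009 and 868 FPKM in PB and PB-TERRA, which is a log2 ratio of -0.22 with an interval from the reads of -0.29 to -0.20. The pair was lower in PB-TERRA, while Hist1h2ap alone was higher.

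Hist1h2ai had 11.68 FPKM in PB, against 2.46 in PB-TERRA (97 and 20 reads), with a log2 ratio of -2.20 and an interval of -3.06 to -1.58. Of its stretches, 84.0% occur in Hist1h2ad, and 88.7% occur in annotated genes outside the members, chiefly Hist1h2aj, which is not analysed here. Hist1h2an had 2.31 and 0.34 FPKM from 19 and 3 reads, a log2 ratio of -2.45 with an interval of -5.07 to -0.91. Of its stretches, 80.5% occur in Hist1h2ah. The H2A members with wide differences in either direction thus share 80.5% or more of their stretches with another member, but so does Hist1h2ah, with 87.4% in Hist1h2ad, and it had 3.54 and 5.13 FPKM and an interval that includes 0.

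The replication-dependent H2A genes of the Hist2 cluster gave another pair of copies with opposite values. Hist2h2aa2 had 0.01 FPKM in PB, the floor of the table, and 1 in PB-TERRA, from 0 and 12 reads. The interval of its log2 ratio begins at 1.47 and has no upper end. With a pseudocount of 1 its ratio was 0.99, just under the threshold. Hist2h2aa1 had 0.82 and 0.09 FPKM from 9 and 1 reads. All stretches of Hist2h2aa2 occur in Hist2h2aa1, and the sum of the pair was 0.83 and 1.09 FPKM, from 9 and 13 reads, with an interval of the log2 ratio of -0.82 to 1.93 that includes 0. For the pair, no difference was detectable at this depth. All stretches of both genes also occur in annotated genes that are no members, such as Gm20632 and Gm20633, so the sum of the pair does not settle how their reads were assigned.

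The other H2A members were low. Hist3h2a, a gene apart from the other clusters, has a deposited length of 508 bases but 2097 stretches in its annotated transcript. Of these stretches, 2% occur in other members and 31.5% in genes outside the members, chiefly Trim17. Where they lie relative to the deposited gene was not checked. Hist3h2a had 2.36 FPKM in PB, against 1.63 in PB-TERRA (23 and 16 reads, interval -1.55 to 0.45). Hist2h2ac had 0.11 FPKM in both, with 1 read each. The remaining 8, all of Hist1, ranged from 0.01 to 3.54 FPKM in PB and from 0.03 to 5.13 in PB-TERRA, with 4 higher and 4 lower.

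By class, the summed FPKM of H2A was 1165 in PB and 994.8 in PB-TERRA, and thus a log2 ratio of -0.23 with an interval from the reads of -0.29 to -0.21. This value follows Hist1h2ao. Without it, the sum of the other 16 was 161 and 205 FPKM, a log2 ratio of 0.34, and without both Hist1h2ao and Hist1h2ap the sum of 15 was 156 and 127 FPKM, a log2 ratio of -0.30 (interval from the reads -0.39 to -0.18). With Hist1h2ad left out too, the other 14 members had 265 and 174 reads, and the log2 ratio of their summed FPKM was -0.69. Hist1h2ai decided that value, since without it the remaining 13 had 16.9 and 15.2 FPKM, from 168 and 154 reads, a log2 ratio of -0.15 with an interval of -0.46 to 0.19 that includes 0.

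H2B, the partner of H2A in the nucleosome, had 22.1 FPKM in PB, against 23.7 in PB-TERRA, and thus a log2 ratio of 0.10 with an interval from the reads of -0.14 to 0.30. Hist1h2bc was its most abundant gene, with 12.90 and 15.58 FPKM (196 and 238 reads), a log2 ratio of 0.27 and an interval of -0.01 to 0.55. Without it the sum of the class was 9.24 and 8.07 FPKM, and the log2 ratio was -0.20, with an interval of -0.65 to 0.10 from the reads. Hist1h2bk had 2.71 and 2.50 FPKM, Hist3h2ba 0.93 and 1.73, Hist2h2be 0.17 and 0.19, and Hist2h2bb 0.32 and 0.11, the last from 3 reads and 1. The other 12 members lay at or under 0.98 FPKM in PB and 0.57 in PB-TERRA, with 3 higher, 8 lower and 1 equal. In no H2B member did the interval leave 0 out.

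The classes H3 and H4, which together form the core of the nucleosome on which H2A and H2B assemble, were low in both libraries. For none of their 22 genes did the interval leave 0 out. With no filter, 15 of the 22 were listed lower in PB-TERRA, which is 68.2%, against 47.1% of the 664 other short genes with a mean under 5 FPKM, 42 of which were equal in both libraries. H3 summed to 11.6 FPKM in PB and 8.77 in PB-TERRA (110 and 84 reads), a log2 ratio of -0.40 with an interval of -0.82 to 0.03. Hist1h3c, past the fold threshold, had 1.92 and 0.79 FPKM from 17 and 7 reads, a log2 ratio of -1.18 with an interval of -2.80 to 0.06. With a pseudocount of 1 its ratio was -0.71, under the threshold. Hist1h3h had 1.87 and 1.14 FPKM, Hist1h3b, in the other direction, 0.99 and 1.69, and Hist2h3c2 0.30 and 0.38. The other 6 ranged from 0.27 to 1.74 FPKM in PB and from 0.18 to 1.44 in PB-TERRA, with 2 higher and 4 lower.

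H4 summed to 10.3 FPKM in PB and 7 in PB-TERRA, from 75 and 50 reads. Its log2 ratio of -0.56 had an interval of -1.14 to -0.06, and with a pseudocount of 1 for each gene the ratio was -0.23. Hist1h4i had 3.22 and 1.81 FPKM, Hist1h4d 1.27 and 1.90, and Hist1h4k 1.29 and 0.95. Hist2h4 had 0.90 and 0.15 FPKM from 6 reads and 1, and Hist4h4, the gene that lies alone on chromosome 6, 0.62 and 0.74. The other 7 lay at or under 1.25 FPKM in PB and 0.60 in PB-TERRA, with 1 higher and 6 lower.

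H1, the linker histone, hardly appeared in either library. Its 6 genes summed to 2.69 FPKM in PB and 2.85 in PB-TERRA, from 42 and 45 reads, and the interval of -0.55 to 0.73 includes 0. Hist1h1c was the only one past the filter, with 1.65 and 1.31 FPKM. Hist1h1a had 0.19 and 0.57 FPKM, Hist1h1b 0.18 and 0.24, Hist1h1d 0.27 and 0.30, Hist1h1e 0.27 and 0.24, and Hist1h1t, the testis form, 0.13 and 0.19, each from at most 9 reads.

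**Figure D4:**
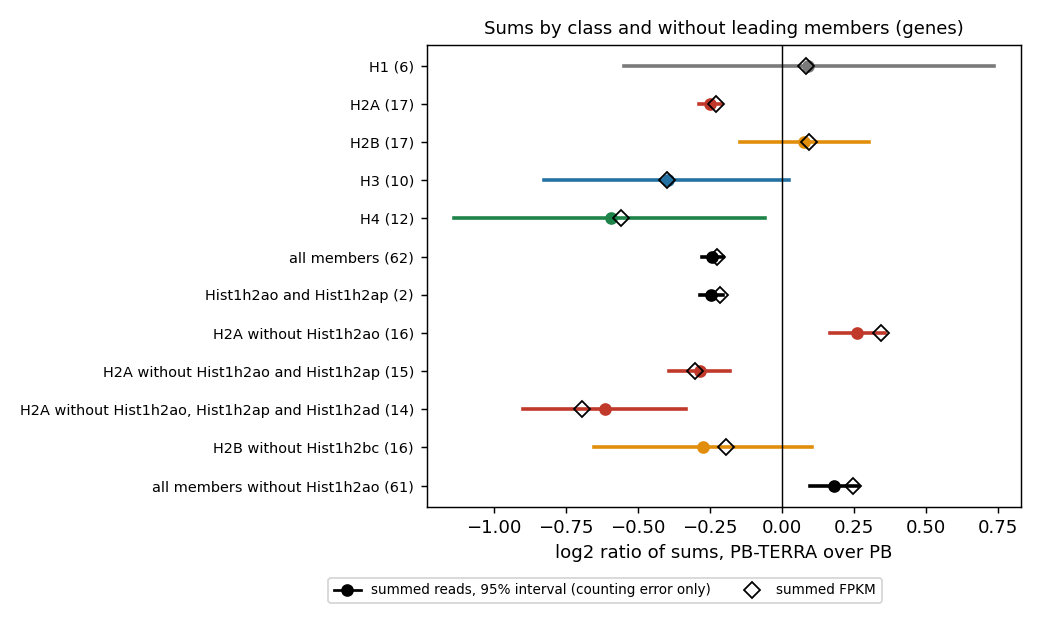
log2 ratio of sums, PB-TERRA over PB (x axis), for each class, for all members and for sums that leave out the leading members, with the number of genes in brackets. Filled points and bars are summed reads with the 95% Clopper-Pearson interval, which covers counting error only, and open diamonds are summed FPKM. H2A and all members lie near -0.23 with Hist1h2ao and above 0 without it, and the bars of H1, H2B and H3 cross 0.

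All 62 genes together had 1212 FPKM in PB, against 1037 in PB-TERRA, and thus a log2 ratio of -0.22 with an interval from the reads of -0.28 to -0.21. Without Hist1h2ao the sum of 61 was 208 and 247 FPKM, a log2 ratio of 0.25, and leaving out Hist1h2ao, Hist1h2ad, Hist1h2ap and Hist1h2bc gave 62.4 and 44.4 FPKM over 58 genes, a log2 ratio of -0.49 (623 and 463 reads, interval -0.61 to -0.26). With Hist1h2ai left out as well, the log2 ratio of the remaining 57 was -0.28. These sums were chosen after the values were seen. The sum of the 61 was thus higher in PB-TERRA and that of the 58 lower.

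Gene by gene, 2 members past the filter had a log2 ratio of at least 1, Hist1h2ap and Hist2h2aa2, and 3 had a ratio of -1 or less, Hist1h2ai, Hist1h2an and Hist1h3c. Over all genes past the filter, 0.44% were as much higher and 0.473% as much lower, and over the 591 other genes of 350 to 800 bases 2.88% and 2.54%. Most members are low, however, with a mean under 5 FPKM in 22 of the 27. Among these 22, 1 was higher and 2 were lower by the threshold, while among 160 other short genes of that level 10% were higher and 7.5% lower. Hist2h2aa2, Hist1h2an and Hist1h3c passed the filter only through the library in which they were higher, so nothing is read from these counts about the members.

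The median log2 ratio of the 27 members past the filter was -0.32, with 10 higher and 17 lower. Of the 17 lower members, 8 reached 1 FPKM only in PB, and of the 10 higher ones 3 only in PB-TERRA, so nothing is read from this median about the members. With no filter, 37 of the 62 were lower (59.7%), 23 higher and 2 equal, against 54.0% lower of the 1095 other short genes. Summed over the 57 members with a mean under 5 FPKM, which include Hist1h2ah at 5.13 FPKM in PB-TERRA, the level was 50.7 FPKM in PB and 41.9 in PB-TERRA, with an interval of the log2 ratio of -0.45 to -0.08 from the reads. They are the same 57 genes as in the sum above, chosen after the values were seen. The 664 other short genes of that level summed to 486 FPKM in PB and 488 in PB-TERRA, with an interval of -0.05 to 0.06.

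**Figure D5:**
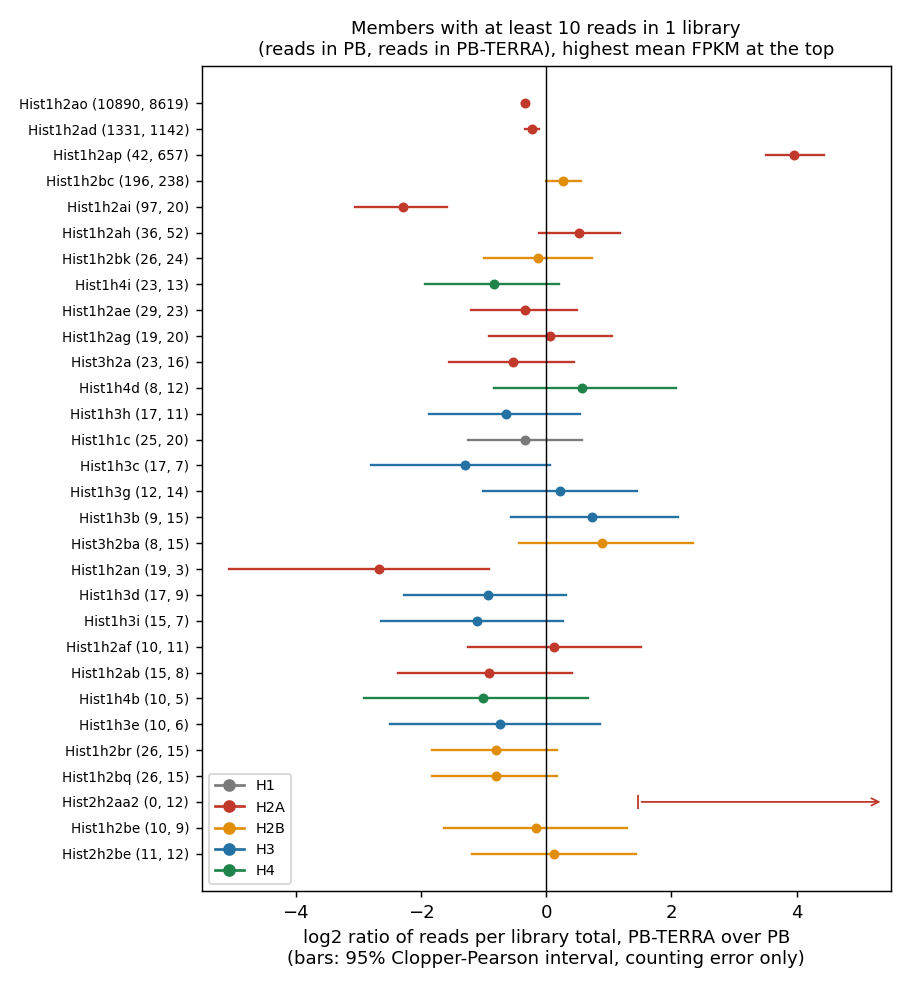
log2 ratio of reads per library total, PB-TERRA over PB (x axis), for the 30 members with at least 10 reads in 1 library, ordered by mean FPKM and coloured by class, with the reads of each library in brackets. Bars are 95% Clopper-Pearson intervals, which cover counting error only, and the arrow is the open interval of Hist2h2aa2, with 0 reads in PB. Hist1h2ap and Hist2h2aa2 lie to the right of 0, Hist1h2ao, Hist1h2ad, Hist1h2ai and Hist1h2an to the left, and the other 24 bars cross 0.

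Of 30 members with at least 10 reads in 1 library, 6 (20%) had an interval that left 0 out, all of them H2A genes. The same held for 31.4% of all genes with that many reads and for 35.9% of other genes of 350 to 800 bases. By level, it held for 2 of 25 members with a mean under 5 FPKM (8%) and for 18.5% of other short genes of that level. These 2, Hist1h2an and Hist2h2aa2, reached 10 reads only in the library in which they were higher, so nothing is read from this count. At a mean of at least 5 FPKM it held for 4 of 5 members (80%) and for 43.9% of other short genes.

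The lists of genes for making, cutting and removing histone mRNA had medians near 0, while single genes differed in both directions. Over 28 genes of histone gene transcription and 3′ end processing, all past the filter, the median log2 ratio was 0.03, with 17 higher and 11 lower and none past the fold threshold. Their ratios ran from -0.21 to 0.29. The interval lay above 0 for 10 and below 0 for 4 (50%), and left 0 out for 31.4% of all genes with at least 10 reads. Slbp, which binds the stem-loop, had 54.9 FPKM in PB, against 57.2 in PB-TERRA, and Npat, the coactivator of histone cluster transcription, 13.01 and 14.08. Srrt, the Ars2 protein that links the mRNA cap to processing, had 115 and 124 FPKM, Nudt21, a subunit of the cleavage factor of poly(A) site choice, 120 and 112, and Nfyc, a subunit of NF-Y, 62.6 and 61.6. Over 18 genes of histone mRNA decay the median was 0.01, with the interval above 0 for 4 and below 0 for 2 (33.3%). Lsm3, Lsm2 and Lsm7, subunits of the ring that binds the tails of decaying mRNA, had 135, 97.6 and 97.8 FPKM in PB and 141, 102 and 89.8 in PB-TERRA.

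Histone chaperones, which carry histones to and from DNA, had a median of 0.05 over 26 genes, with 18 higher and 8 lower. Npm1 had 2397 FPKM in PB, against 2413 in PB-TERRA, Nap1l1 527 and 530, and Set 495 and 523. S phase genes had a median of -0.02 over 27 genes, with Pcna, the clamp of DNA polymerases, at 214 and 209 FPKM, Mcm7, a subunit of the replicative helicase, at 202 and 200, and Ccne1, cyclin E1, at 174 and 176. Genes of G2 and mitosis had a median of -0.0045 over 22 genes, with Ube2c at 353 and 344 FPKM, Cdc20 at 189 and 178 and Ccnb1, cyclin B1, at 163.1 and 162.6. No gene of these lists had an absolute log2 ratio of 1 or more.

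The variant histones, most of which are made throughout the cycle from mRNA with a poly(A) tail, had a median log2 ratio of -0.10, and 9 of the 11 past the filter were lower, against 50.9% of all genes. With the trend of the ratio with gene length taken off, the median was -0.04, with 8 lower and 3 higher. H2afz, the variant H2A.Z, had 601 FPKM in PB, against 540 in PB-TERRA, H3f3a 549 and 545 and H3f3b, which like H3f3a encodes H3.3, 311 and 304. These levels per length set the cluster genes in place: Hist1h2ao stood above H2afz in both libraries, while the highest H3 cluster gene in either library, Hist1h3c in PB, had 1.92 FPKM.

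RNAs that lack a poly(A) tail or have little of it served as a comparison for what the libraries take up. The table holds 14 such genes, and 7 of these passed the filter, with 4 higher and 3 lower and a median of 0.04. One of them, Snhg1, at 73.0 and 75.3 FPKM, is a spliced host transcript that has a tail and was listed by mistake, and without it the median of 6 was 0.22. Neat1, of nuclear paraspeckles, is listed with 3204 bases, the length of its short form, which has a tail. It had 24.6 and 36.0 FPKM, and without both the median of 5 was -0.05. Malat1, a nuclear RNA with a folded end, had 50.9 FPKM in PB, against 49.0 in PB-TERRA. The small RNAs Rn7sk and Rpph1, named after their values were seen, had 2.22 and 3.87 FPKM and 3.83 and 2.28 FPKM, with intervals that include 0. They lay on opposite sides of 0.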

How the data were processed

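The authors extracted total RNA with Trizol from 46C mESCs carrying PB or PB-TERRA, prepared it with the TruSeq RNA LT kit and sequenced it on BGISEQ500, 1 library per condition. The submitters' processing notes name HISAT, Cufflinks and the build mm9, without versions. How reads matching several copies were assigned, and the annotation, are not given in the sources used here. A single table of 18888 genes was deposited. FPKM is the unit taken for its expression columns, which the authors rounded to 2 decimals with 0.01 as the lowest value. The unit was inferred from the values, since no column name states it. The deposited gene length in bases was used too. The table's columns of log2 fold change, PossionDis p-value, adjusted p-value and direction hold the authors' comparison and were not used.

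The members and gene lists were chosen with earlier results of these data known. The change of a gene was log2 of FPKM + 0.1 in PB-TERRA over PB, for genes that reached 1 FPKM in either library, and the fold threshold was 1. Sums are of FPKM over all members, without a pseudocount. Reads were estimated from FPKM times length, with 114 bases taken off the length and the library totals fitted on genes outside the members. On simulated data this gave the exact reads for 100% of 951 genes in PB and 954 in PB-TERRA. Of the members' values under 100 reads, 60.6% of 109 came within 0.15 of a whole read, against 77.2% of 1187 in other genes of 350 to 800 bases, so single-gene reads of members are approximate. Intervals are exact binomial (Clopper-Pearson) at 95%. Genes named in full are the 3 most abundant of each class, all past the threshold, all of H1 and all of Hist2, Hist3 and Hist4, with the 3 most abundant of each list and Slbp, Npat, H3f3a, H3f3b and H2afz. Sequences come from GENCODE M21 on GRCm38 and RefSeq GRCm38.p6, and all 62 members matched the RefSeq gene table by gene number. Coordinates are of GRCm38, not of the authors' mm9. No amino acid sequence was used. Alternatives changed the pseudocount, filter, scaling, gene length trend, fold threshold and the genes summed. Scripts ran on Python 3.11.15 with scipy 1.17.1, numpy 2.4.6, matplotlib 3.10.9 and pandas 2.3.3.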

Additional observations from a re-analysis of the deposited data

How the results depend on the processing

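No paired analysis was possible because each condition is 1 library and the labels give no replicate numbers. The count of members past the fold, 2 higher and 3 lower, depended on the settings. It was 1 higher and 2 lower with a pseudocount of 1, where Hist2h2aa2 at 0.99 and Hist1h3c at -0.71 fell short of it, 5 lower with a pseudocount of 0.01, 7 higher and 13 lower among all 62 without the filter, 1 and 1 among the 5 members with a mean of at least 5 FPKM, and 6 and 11 at a threshold of 0.5. The other counts under these settings and those under every other scaling were within 1.5 times of the main ones. The log2 ratio of the H2A sum moved from -0.23 to -0.18 with the length trend taken off, to 0.34 without Hist1h2ao, to -0.33 without Hist1h2ap and Hist1h2ai, to -0.17 with genes annotated to the class added, and to -0.41 without the members that reach 5 FPKM in either library, Hist1h2ah among them. The sum of all members, at -0.22, moved in the same order to -0.18, 0.25, -0.32, -0.12 and -0.36. H2B moved from 0.10 to -0.20 without Hist1h2bc, which is also its only member of at least 5 FPKM. Without Hist1h2ao, Hist1h2ap, Hist1h2ad and Hist1h2ai the H2A sum was at -0.15, and without these and Hist1h2bc all members were at -0.28, both chosen after seeing the data. The sums of H1, H3 and H4, with wide counting intervals, moved within them but not by little. With genes annotated to the class added, H1 went from 0.08 to -0.10, H3 from -0.40 to -0.03 and H4 from -0.56 to -0.36. With a pseudocount of 1 they were at 0.03, -0.20 and -0.23, with the length trend taken off H1 was at 0.15, and without the member that moved it most H1 was at 0.57 (Hist1h1c), H3 at -0.58 (Hist1h3b) and H4 at -0.83 (Hist1h4d). With a mean of at least 5 FPKM these classes have no member left. Hist1h2ap went from 3.92 to -0.22 when summed with Hist1h2ao, an alternative chosen after seeing the data, as was leaving out the members that reach 5 FPKM in either library. Of 208 values of 29 named members under the other alternatives, 0 changed sign. A changed pseudocount or filter cannot change a sign, and the ratio of 0 of Hist2h2ac cannot count as changed. Nothing is therefore read from this count. The list of primitive endoderm markers moved from a median of 0.41 to 0.28 with a pseudocount of 1. Medians of other lists with few genes changed too, within their wide intervals. The fibroblast median went from 0.53 to 0.30 with a pseudocount of 1 and to 0.05 with no filter. The early neural median went from 0.07 to -0.03 with a pseudocount of 1. At a mean of at least 5 FPKM it was -0.38, and that of the RNAs with little or no tail went from 0.04 to 0.27. The scalings shifted all genes by at most 0.01 in log2. The length trend taken off members was -0.08 to -0.0046, which raised their ratios. With 1 library per condition, the spread between cultures is unknown, and under 50 reads only wide differences can be seen.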
